A study of Mus musculus with 35 samples.

Results

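The sterol and fatty acid synthesis genes described here are 29 genes of the mevalonate pathway, of cholesterol synthesis from squalene onwards, of the machinery that controls both, and of fatty acid synthesis. They were taken by gene symbol, by a rule that uses no measured value, from among the 49671 genes counted by RNA-seq in cultured mouse bone marrow cells. The cells were lin- HSPCs, the stem and progenitor fraction of marrow that lacks surface markers of mature blood cells, from C57Bl/6 mice of both sexes. They were transduced with lentivirus and sorted on fluorescence. They were then grown for 1 week in methylcellulose medium with growth factors for myeloid and erythroid cells and with 10 ng/mL GM-CSF. GM-CSF is a cytokine that favours granulocytes and macrophages. RNA came from this first plating, from 7 groups of 5 libraries, and all groups share the lentiviral transduction and the culture. The sort gate differed, since empty vector cells were taken as mCherry-positive and construct cells as positive for both mCherry and mEGFP, so gate and construct cannot be told apart in the comparisons with empty vector. The label of nearly all libraries gives mice of 8 weeks, and those of 3 libraries give 9 weeks (empty vector replicate 4), 10 weeks (empty vector replicate 5) and 11 weeks (G-NHA9 replicate 1).

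The control group carried an empty vector that expresses mCherry. The other 6 groups carried NUP98-HOXA9 (written NHX9 in the labels and NHA9 here), a fusion found in leukemia that joins the phenylalanine-glycine (FG) rich part of the nucleoporin NUP98 to the DNA-binding homeodomain of HOXA9, with a green fluorescent tag (G-NHA9). G-NHA9-8FA has 8 phenylalanines changed to alanine, and G-NHA9-21FGAA has 21 FG pairs changed to alanines. G-NHA9Midi is a shortened form that keeps the C-terminal part of the NUP98 portion, and G-NHA9Midi-21FGAA joins both changes. G-NHA9-ΔDNA (DDNA in the labels) carries a homeodomain mutated to weaken DNA binding. The constructs were expressed from virus in addition to the cells' own genes, and the sources used here do not say whether the 5 libraries of a group came from separate animals. The study's methods speak of transduction in triplicate, which leaves unclear how the 5 libraries arose, so p-values measure only the spread between these libraries.

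In the sterol pathway, acetyl-CoA is turned through mevalonate into isoprenoid units, which are joined to squalene, closed to lanosterol and trimmed to cholesterol. Fatty acid synthesis starts from the same cytosolic acetyl-CoA, which is carboxylated, built into palmitate, elongated and desaturated. Transcription of both pathways is driven by the SREBP factors, which SCAP carries to the Golgi for activation when sterols are low and which INSIG proteins hold back when sterols are plentiful. Proliferating blood cells draw on both pathways for membranes.

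All 29 members passed the filter on low counts, which kept 17166 genes. Every member had at least 422 counts in every library, of total counts between 31559914 and 75810659, and together they took 0.287% to 0.689% of a library. The labels number the libraries of each group from 1 to 5, and libraries 4 and 5 stood apart from libraries 1 to 3 in several members, while the median difference over all genes tested was -0.01 (log2). Srebf2, which was chosen for this description after its values were seen, was at 84.3, 93.7 and 85.8 CPM (read counts per library size, scaled by TMM) in empty vector libraries 1 to 3 and at 168 and 189 CPM in libraries 4 and 5. Averaged over the 7 groups, libraries 4 and 5 were higher by 0.67 (log2) for Srebf2, 0.62 for Fasn, 0.49 for Scd1 and 0.35 for Dhcr7, each in 7 of 7 groups. They were lower by -0.24 for Insig1 and -0.25 for Hmgcs1, each in 6 of 7 groups. What the numbers stand for is not given in the sources used here, so each count of called members that changes by over 1.5 times with libraries 1 to 3 alone is also given without libraries 4 and 5.

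**Figure D1:**
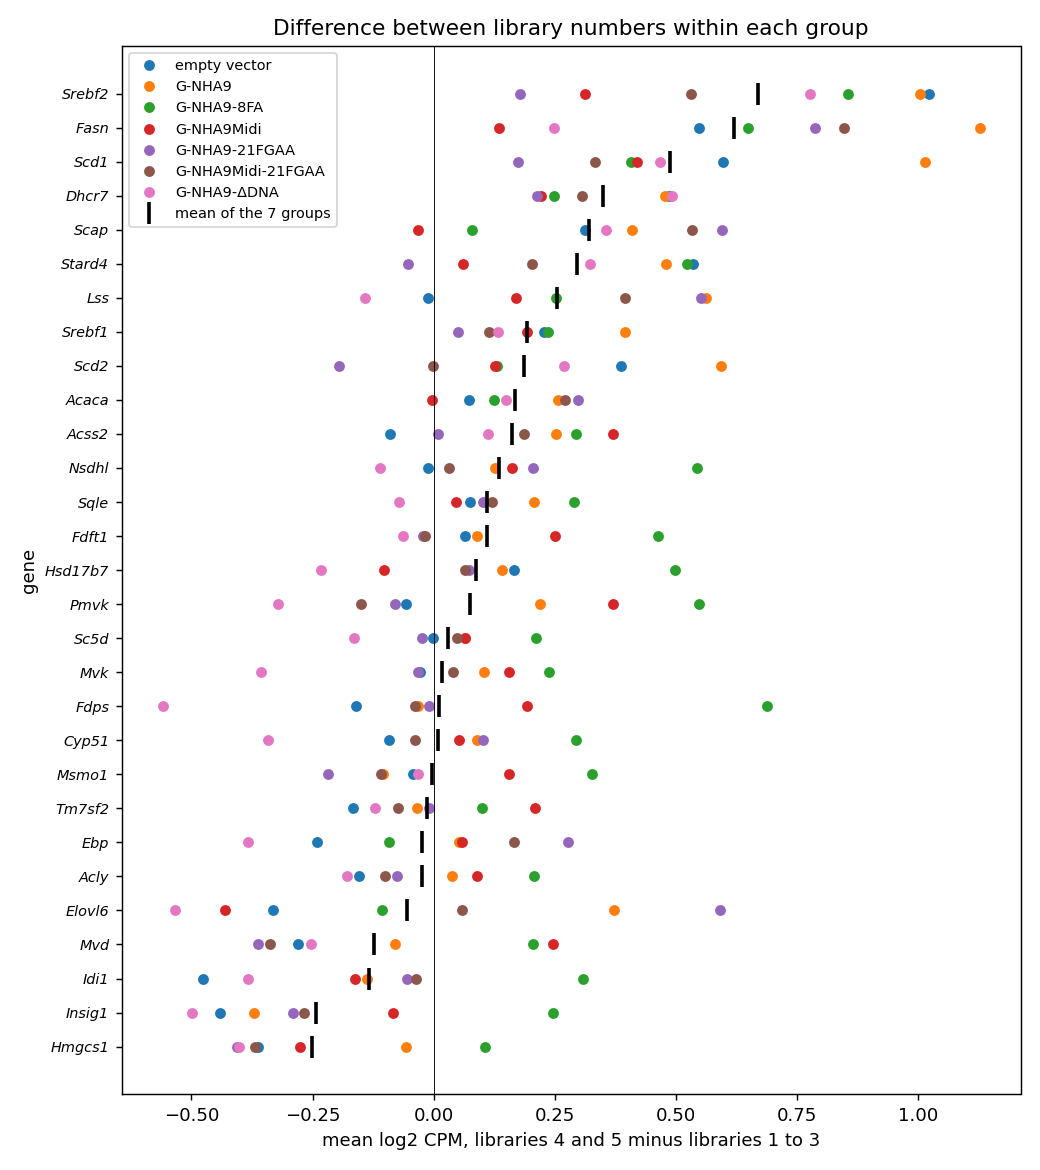
Mean log2 CPM of libraries 4 and 5 minus that of libraries 1 to 3 (x axis) for each member (rows), with 1 point for each of the 7 groups and a bar for their mean. The points of Srebf2, Fasn, Scd1 and Dhcr7 lie above 0 in all 7 groups, and those of Insig1 and Hmgcs1 lie below 0 in 6.

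To show the letters upstream of these genes, promoter windows from RefSeq (GRCm38.p6) were matched by symbol, which gave a window for 23 of the 29 members (not for Fdps, Fdft1, Sqle, Stard4, Scd1 and Scd2). The 250 bases before the annotated start were searched on both strands for TCACNCCAC, a core of the sterol regulatory element bound by SREBP, for the NF-Y box CCAAT and for the GC box GGGCGG bound by Sp1, both of which often stand beside SREBP sites, and for the E-box CACGTG. The NF-Y box was found in 19 of the 23 members (82.6%), against 37.5% of the 27025 genes with a window. These and the following shares of genes include genes too low in counts to be tested here, whereas every member was tested. A share among the tested genes alone was not computed. GGGCGG was found in 19 members (82.6%), against 35.4% of genes, and CACGTG in 5 (Dhcr7, Hsd17b7, Insig1, Sc5d and Scap; 21.7%), against 6.86%. TCACNCCAC was found in Hmgcs1 alone (4.35% of members), against 1.22% of genes. The stretches shown here, picked with the genes' values known, are those of Hmgcs1, of 4 genes that were higher in 4 of the 6 constructs (Idi1, Lss, Cyp51 and Fasn) and of Msmo1, which was called in none. Capitals mark matches to the first 3 motifs on either strand (a match on the other strand reads as the motif's reverse complement). These are matches of letters, not measured binding sites. The RefSeq start lies inside the GENCODE gene for some of them: the last 214 bases of the stretch of Msmo1, 105 of Idi1, 49 of Cyp51 and 17 of Lss are within the gene, with 5 of 5, 3 of 3, 1 of 2 and 0 of 3 of their matches, whereas those of Hmgcs1 and Fasn lie outside it.
Hmgcs1 (chr13:119690101-119690350, + strand): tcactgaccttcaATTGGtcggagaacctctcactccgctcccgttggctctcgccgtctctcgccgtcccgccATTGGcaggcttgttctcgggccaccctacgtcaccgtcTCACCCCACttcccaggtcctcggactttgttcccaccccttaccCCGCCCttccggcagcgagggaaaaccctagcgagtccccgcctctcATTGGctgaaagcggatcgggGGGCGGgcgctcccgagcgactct
Idi1 (chr13:8885356-8885605, + strand): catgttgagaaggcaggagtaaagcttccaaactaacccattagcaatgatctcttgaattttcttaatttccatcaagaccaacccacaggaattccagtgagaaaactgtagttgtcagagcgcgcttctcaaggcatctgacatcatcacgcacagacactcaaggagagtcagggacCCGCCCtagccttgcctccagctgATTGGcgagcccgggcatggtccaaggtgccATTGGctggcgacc
Lss (chr10:76531355-76531604, + strand): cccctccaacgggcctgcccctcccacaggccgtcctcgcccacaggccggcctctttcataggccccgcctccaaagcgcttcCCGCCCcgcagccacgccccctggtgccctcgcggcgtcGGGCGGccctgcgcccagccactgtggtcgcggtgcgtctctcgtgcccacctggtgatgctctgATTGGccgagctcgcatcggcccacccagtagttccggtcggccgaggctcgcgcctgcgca
Cyp51 (chr5:4104698-4104947, - strand): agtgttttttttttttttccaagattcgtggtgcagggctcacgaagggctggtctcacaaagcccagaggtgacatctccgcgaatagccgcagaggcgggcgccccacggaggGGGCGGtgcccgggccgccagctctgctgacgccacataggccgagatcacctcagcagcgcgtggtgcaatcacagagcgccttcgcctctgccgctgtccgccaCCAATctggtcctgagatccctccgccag
Fasn (chr11:120824548-120824797, - strand): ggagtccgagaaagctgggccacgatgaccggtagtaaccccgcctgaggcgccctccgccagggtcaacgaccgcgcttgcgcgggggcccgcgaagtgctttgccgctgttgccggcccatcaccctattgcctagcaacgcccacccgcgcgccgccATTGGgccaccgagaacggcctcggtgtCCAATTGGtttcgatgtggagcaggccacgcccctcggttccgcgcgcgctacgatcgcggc
Msmo1 (chr8:64733579-64733828, - strand): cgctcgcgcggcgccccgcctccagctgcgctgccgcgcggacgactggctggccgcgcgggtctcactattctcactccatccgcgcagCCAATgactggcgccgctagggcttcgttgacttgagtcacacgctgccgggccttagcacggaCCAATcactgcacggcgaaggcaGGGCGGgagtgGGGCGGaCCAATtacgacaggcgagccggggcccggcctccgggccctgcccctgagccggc

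In these stretches the match to TCACNCCAC in Hmgcs1 starts 137 bases before the start. Hmgcs1 and Msmo1 each hold 3 matches to CCAAT and 2 to GGGCGG. The RNA level of Hmgcs1 differed over the 7 groups (adjusted p = 0.0064, edgeR's F test), and that of Msmo1 did not pass this test (0.98). Fasn holds 3 matches to CCAAT, of which 2 overlap on opposite strands, and none to GGGCGG.

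Compared per length of exon (RPKM), the members spanned a wide range in the empty vector cells. Scd2, a stearoyl-CoA desaturase that puts the double bond into saturated fatty acids, was the most abundant at a mean of 259 RPKM. Acly, which makes cytosolic acetyl-CoA from citrate, followed at 77.5 RPKM, Mvd at 49.4 RPKM and Hmgcs1 at 45.9 RPKM. The lowest were Tm7sf2 (3.59 RPKM), Acss2 and Scap (3.92 RPKM each). Summed over the 29 members, the level was 4090 ± 518 CPM (SD, n = 5) in empty vector, 4782 ± 870 in G-NHA9, 3830 ± 593 in G-NHA9-8FA and 3712 ± 491 in G-NHA9Midi. It was 5283 ± 351 CPM in G-NHA9-21FGAA, 5047 ± 384 in G-NHA9Midi-21FGAA and 5529 ± 238 in G-NHA9-ΔDNA. The lowest library of G-NHA9-21FGAA (4823 CPM) and of G-NHA9-ΔDNA (5119 CPM) lay above the highest empty vector library (4814 CPM), whereas the ranges of the other 4 constructs overlapped that of empty vector. Scd2 makes up a large part of this sum. Without Scd2, the mean was 2673 CPM in empty vector, 3207 in G-NHA9, 2716 in G-NHA9-8FA, 2610 in G-NHA9Midi, 3477 in G-NHA9-21FGAA, 3259 in G-NHA9Midi-21FGAA and 3578 in G-NHA9-ΔDNA. The lowest library of G-NHA9Midi-21FGAA (3128 CPM) then also lay above the highest of empty vector (2916 CPM). In these bulk samples, fewer cells of a kind and less RNA per cell cannot be told apart.

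Over the 7 groups, 22 of the 29 members differed (F test of edgeR's quasi-likelihood fit, adjusted p below 0.05, as in all calls below), against 60.3% of all genes tested. The 7 members that did not were Mvd, Fdft1, Msmo1, Insig1, Srebf2, Scap and Acly. Scd1 (adjusted p = 6.2e-09), Sc5d (2.6e-08), Acss2 (3.7e-08) and Idi1 (5.8e-08) had the smallest p-values in this fit. Scd1 also had the largest ratio of the highest to the lowest group mean, 4.35 between G-NHA9-ΔDNA and G-NHA9Midi. Msmo1, a demethylase of the sterol ring, had the smallest ratio, 1.06, with group means between 196 and 208 CPM.

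Each construct was compared with empty vector, and all 6 comparisons share the same 5 control libraries. In G-NHA9-21FGAA, 17 of 29 members rose and none fell (58.6%, against 27.1% of all genes called and 14.7% called higher). In G-NHA9-ΔDNA, 16 rose and none fell (55.2%, against 17.2% called, 9.85% higher and 7.35% lower). In G-NHA9Midi-21FGAA, 10 rose and none fell (34.5%, against 16.9% called, 9.59% higher and 7.32% lower). In G-NHA9, 10 rose and none fell, a share (34.5%) near the 32.1% of all genes called there, of which 16.9% were higher and 15.2% lower. G-NHA9-8FA had 4 members higher and 1 lower (17.2%, against 26.6% of all genes called), and G-NHA9Midi had 3 higher and 5 lower (27.6%, against 40.5%, of which 20.5% higher and 20.0% lower), both below the background. Among genes whose mean reached 1 CPM, the background was 38.0% in G-NHA9, 30.8% in G-NHA9-8FA, 46.7% in G-NHA9Midi, 34.6% in G-NHA9-21FGAA, 22.9% in G-NHA9Midi-21FGAA and 24.1% in G-NHA9-ΔDNA.

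The median log2 fold change over the 29 members was 0.37 in G-NHA9-21FGAA, 0.38 in G-NHA9-ΔDNA, 0.32 in G-NHA9Midi-21FGAA and 0.18 in G-NHA9, and -0.01 in G-NHA9-8FA and -0.06 in G-NHA9Midi, while the median over all genes tested lay between -0.02 and 0.03 in each. A called log2 fold change past 1 either way was seen for no member in G-NHA9 (10.5% of all genes), G-NHA9Midi-21FGAA (3.49%) and G-NHA9-ΔDNA (3.01%). It was seen for 1 in each of the other 3 constructs, G-NHA9-8FA (9.57%), G-NHA9Midi (14.9%) and G-NHA9-21FGAA (5.99%). All 5 libraries of the construct lay above all 5 of empty vector for 13 members in G-NHA9-21FGAA (9.05% of all genes), 12 in G-NHA9-ΔDNA (5.83%), 9 in G-NHA9Midi-21FGAA (5.99%), 4 in G-NHA9 (10.6%), 1 in G-NHA9-8FA (8.31%) and 1 in G-NHA9Midi (13.4%). All 5 lay below all 5 of empty vector for 1 member in G-NHA9-8FA (8.76% of all genes) and 1 in G-NHA9Midi (13.9%), and for none in G-NHA9 (9.51%), G-NHA9-21FGAA (7.79%), G-NHA9Midi-21FGAA (5.49%) and G-NHA9-ΔDNA (6.30%). Scaled by total counts alone, without TMM, the median log2 fold change of all genes was 0.08 in G-NHA9-8FA and 0.12 to 0.19 in the other 5 constructs. The split of members called higher and lower was then 16 and 0 in G-NHA9 (29.2% and 9.53% of all genes). It was 4 and 2 in G-NHA9Midi (29.6% and 16.2%) and 24 and 0 in G-NHA9-21FGAA (26.5% and 5.77%). In G-NHA9Midi-21FGAA it was 16 and 0 (19.1% and 3.89%), and in G-NHA9-ΔDNA 24 and 0 (17.0% and 3.61%). With libraries 1 to 3 alone, the count of called members was 4 in G-NHA9 (against 24.8% of all genes) and 2 in G-NHA9-8FA (17.3%). Without empty vector replicate 2 it was 11 in G-NHA9-21FGAA and 10 in G-NHA9-ΔDNA, and for G-NHA9Midi it was 4 without empty vector replicate 5 and 5 without G-NHA9Midi replicate 2.

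**Figure D2:**
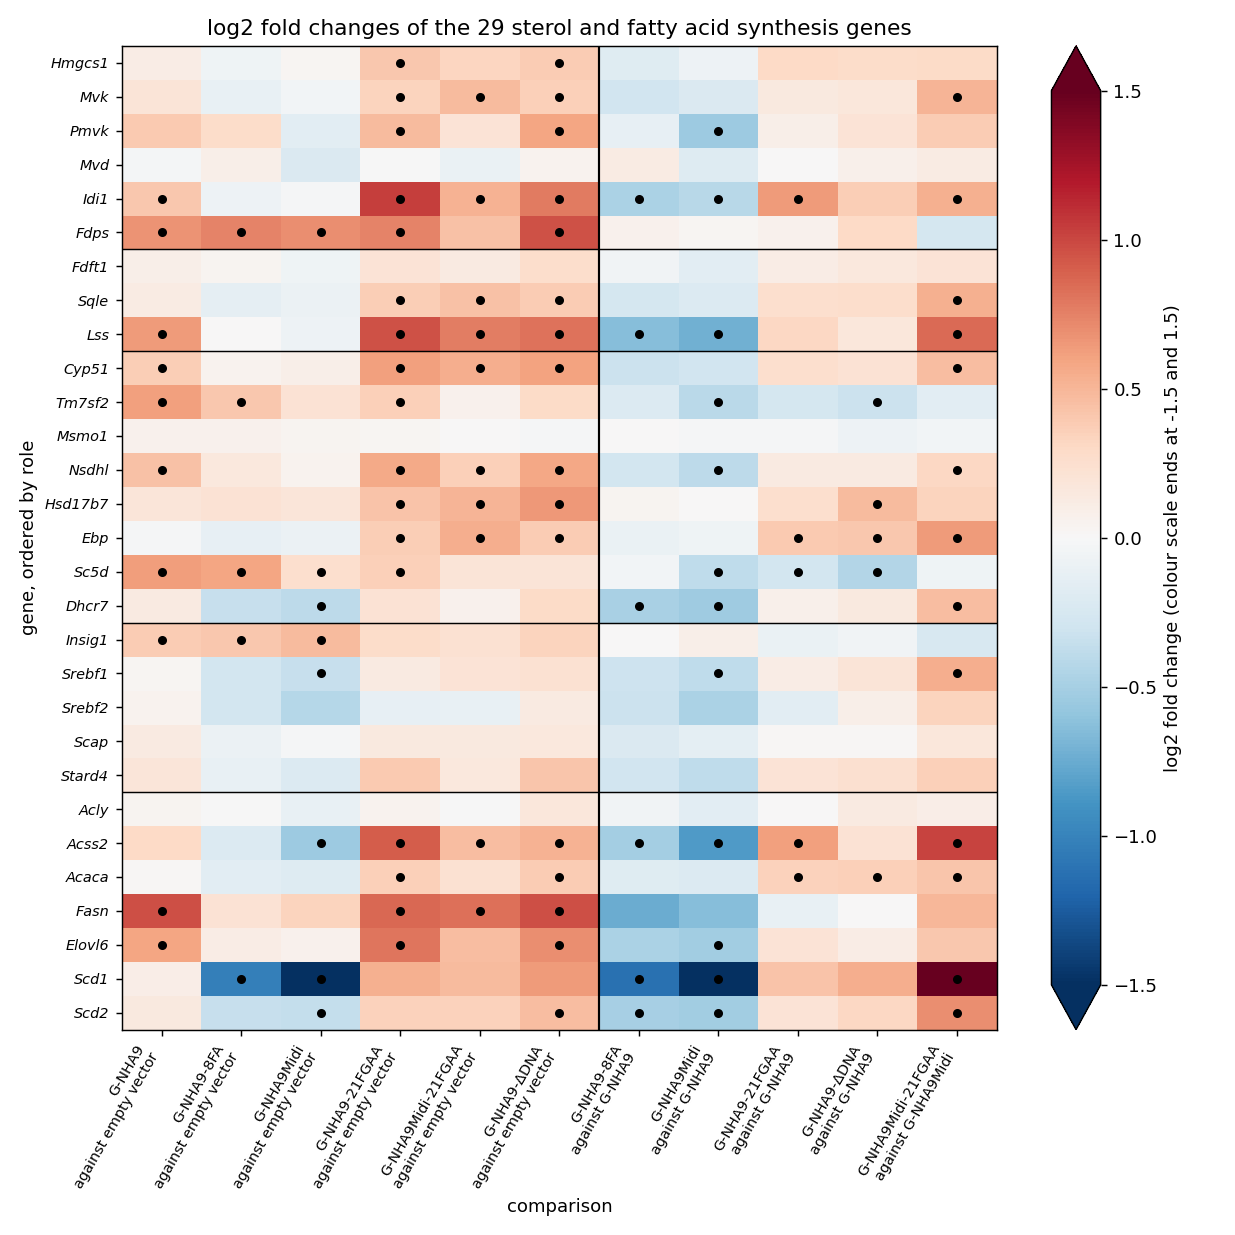
Log2 fold change (colour) of each of the 29 members (rows, by role) in the 6 comparisons with empty vector and, right of the line, the 5 direct comparisons between constructs (columns), with a dot where the adjusted p was below 0.05. Against empty vector, the column of G-NHA9-21FGAA holds 17 dots and that of G-NHA9-ΔDNA 16, all on positive values. In the direct comparisons Scd1 reaches -1.58 in G-NHA9Midi against G-NHA9 and 1.95 in G-NHA9Midi-21FGAA against G-NHA9Midi, both beyond the colour scale.

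Levels of other gene groups also differed between these cells. Of all genes tested, 16.9%, 13.4%, 20.5%, 14.7%, 9.59% and 9.85% were called higher in G-NHA9, G-NHA9-8FA, G-NHA9Midi, G-NHA9-21FGAA, G-NHA9Midi-21FGAA and G-NHA9-ΔDNA. In the same order, 15.2%, 13.2%, 20.0%, 12.5%, 7.32% and 7.35% were called lower. Counts in this and all later lists stand against these shares. The 35 DNA replication genes (MCM, GINS, polymerase and related genes) were taken as a rough marker of growth, and no cell cycle stage was measured. Of these, 30 each were called higher in G-NHA9, G-NHA9-21FGAA and G-NHA9-ΔDNA, 29 in G-NHA9Midi-21FGAA, 18 in G-NHA9Midi and 8 in G-NHA9-8FA. None of the 35 genes was called lower. Their summed level was 1190 to 1729 CPM in empty vector, 1868 to 2239 in G-NHA9, 1378 to 1949 in G-NHA9-8FA, 1446 to 2154 in G-NHA9Midi, 1822 to 2459 in G-NHA9-21FGAA, 1954 to 2173 in G-NHA9Midi-21FGAA and 1767 to 2499 in G-NHA9-ΔDNA. G-NHA9 and G-NHA9-21FGAA, with 30 of these genes each, had 10 and 17 members called against empty vector. Compared directly, these constructs differed in 5 members (17.2%, against 17.2% of all genes), and the part of growth in this was not tested. The 11 erythroid markers in the counts (globins, Alas2, Slc4a1 and others) were called lower for 11 in G-NHA9-8FA and 10 in G-NHA9Midi, and higher for 7 in G-NHA9-21FGAA, 9 in G-NHA9Midi-21FGAA and 4 in G-NHA9-ΔDNA. Their summed level was 226 to 705 CPM in empty vector, 183 to 505 in G-NHA9, 23.6 to 72.4 in G-NHA9-8FA, 41.2 to 78.3 in G-NHA9Midi, 356 to 1784 in G-NHA9-21FGAA, 490 to 1564 in G-NHA9Midi-21FGAA and 422 to 1656 in G-NHA9-ΔDNA.

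Of the other myeloid markers, 7 of 9 mast cell and basophil markers were lower in G-NHA9, as many in G-NHA9-8FA and in G-NHA9Midi, and 8 of 9 eosinophil and 9 of 9 megakaryocyte markers were lower in both G-NHA9-8FA and G-NHA9Midi. The summed mast cell and basophil level was 1239 to 3587 CPM in empty vector, 652 to 936 in G-NHA9, 584 to 917 in G-NHA9-8FA and 481 to 890 in G-NHA9Midi. It was 3369 to 4626 CPM in G-NHA9-21FGAA, 2622 to 6312 in G-NHA9Midi-21FGAA and 2584 to 3876 in G-NHA9-ΔDNA. The summed eosinophil level was 1388 to 1928 CPM in empty vector, 285 to 1033 in G-NHA9, 77.1 to 298 in G-NHA9-8FA and 44.2 to 129 in G-NHA9Midi. In G-NHA9-21FGAA it was 1568 to 2502 CPM, in G-NHA9Midi-21FGAA 831 to 2370 and in G-NHA9-ΔDNA 1610 to 2693. Of the 10 late neutrophil markers, 5 were higher in G-NHA9-8FA, and of the 5 early granule markers 5 rose in G-NHA9-21FGAA and G-NHA9-ΔDNA, 4 in G-NHA9 and G-NHA9-8FA, 3 in G-NHA9Midi and none in G-NHA9Midi-21FGAA. The 10 macrophage markers summed to 2940 to 3885 CPM in empty vector and lay wholly below that in G-NHA9-21FGAA (1593 to 2758), G-NHA9-ΔDNA (2389 to 2683), G-NHA9 (1470 to 2597) and G-NHA9Midi (1377 to 2685), whereas G-NHA9-8FA (1758 to 3282) and G-NHA9Midi-21FGAA (2476 to 3417) overlapped it. The 6 lymphoid markers summed to at most 1.88 CPM in any library. The part of these cell types and of growth in the members' differences was not tested.

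In the mevalonate arm, 5 of 6 genes rose in G-NHA9-21FGAA and in G-NHA9-ΔDNA, 2 in G-NHA9 and in G-NHA9Midi-21FGAA, and 1 in G-NHA9-8FA and in G-NHA9Midi. Idi1 (chr13:8885501-8892451, GRCm38) encodes the isomerase that makes dimethylallyl diphosphate. It was at 37.1, 32.5, 40.9, 30.3 and 23.0 CPM in the empty vector libraries, taken in the order of their numbers here and below. In G-NHA9-21FGAA it was at 68.3, 69.6, 67.6, 67.4 and 64.4 CPM, and in G-NHA9-ΔDNA at 51.8, 63.3, 71.2, 47.5 and 47.0 CPM. All 10 of these libraries lay above every empty vector library. In G-NHA9 Idi1 was at 43.1, 48.7, 43.3, 40.8 and 40.9 CPM, and in G-NHA9Midi-21FGAA at 43.8, 54.1, 43.3, 37.9 and 55.1 CPM. In G-NHA9-8FA it was at 21.5, 30.9, 33.5, 34.5 and 35.1 CPM, and in G-NHA9Midi at 26.4, 44.8, 31.5, 29.7 and 29.9 CPM. These last 2 groups overlapped empty vector, with library 1 of G-NHA9-8FA below its range and library 2 of G-NHA9Midi above it. Against empty vector, Idi1 rose by 1.04 ± 0.15 on the log2 scale (SE; adjusted p = 7.8e-06, edgeR) in G-NHA9-21FGAA, 0.78 ± 0.15 (8.6e-04) in G-NHA9-ΔDNA, 0.52 ± 0.15 (0.015) in G-NHA9Midi-21FGAA and 0.40 ± 0.15 (0.034) in G-NHA9. The last 2 calls were lost with libraries 1 to 3 alone (adjusted p = 0.21 and 0.26).

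Fdps (chr3:89093588-89101959) makes farnesyl diphosphate, the branch point to sterols and to prenylated proteins, and it was the member called in most constructs. It was at 144, 89.4, 114, 96.6 and 107 CPM in empty vector, 139, 218, 178, 169 and 173 in G-NHA9, 123, 183, 141, 212 and 264 in G-NHA9-8FA, and 125, 213, 171, 158 and 226 in G-NHA9Midi. The G-NHA9-21FGAA libraries were at 153, 218, 185, 192 and 173 CPM, in G-NHA9Midi-21FGAA at 139, 166, 146, 169 and 126, and in G-NHA9-ΔDNA at 225, 302, 217, 159 and 174. Empty vector library 1 was the highest control, and only G-NHA9-21FGAA and G-NHA9-ΔDNA lay above it in all 5 libraries. Fdps rose in 5 of the 6 constructs, by 0.67 ± 0.18 (SE) to 0.96 ± 0.18 on the log2 scale, with adjusted p between 8.6e-04 and 0.0048. Fdps shares its locus with the same-strand genes Gm22935 and Gm43738, and how reads in shared exons were counted is not given in the sources used here.

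Of the other members of this arm, Hmgcs1 (HMG-CoA synthase), Mvk (mevalonate kinase) and Pmvk (phosphomevalonate kinase) rose in G-NHA9-21FGAA, by 0.41, 0.33 and 0.48, and in G-NHA9-ΔDNA, by 0.38, 0.36 and 0.59 (log2), and Mvk rose in G-NHA9Midi-21FGAA too, by 0.47. Hmgcs1 was called in G-NHA9Midi-21FGAA with the library number blocked (0.32, adjusted p = 0.025, against 0.10 without it). Mvd, the decarboxylase that makes isopentenyl diphosphate, had log2 fold changes between -0.22 and 0.09 against empty vector and was called in none.

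In the steps from farnesyl diphosphate to lanosterol, Lss and Sqle were called and Fdft1 was not. Lss (chr10:76531588-76557138) encodes lanosterol synthase, which closes the sterol rings. It was at 82.3, 51.3, 66.2, 60.6 and 69.6 CPM in empty vector, 79.5, 97.6, 81.5, 114 and 141 in G-NHA9, 97.9, 119, 106, 150 and 166 in G-NHA9-21FGAA, 86.6, 108, 106, 128 and 134 in G-NHA9Midi-21FGAA, and 115, 125, 121, 111 and 107 in G-NHA9-ΔDNA. The last 3 of these groups lay above empty vector in every library, whereas G-NHA9 overlapped it. In G-NHA9-8FA Lss was at 48.7, 77.9, 58.4, 66.3 and 78.3 CPM and in G-NHA9Midi at 49.4, 69.1, 59.5, 57.1 and 76.6 CPM, both spread over the empty vector range. The log2 fold change was 0.95 ± 0.16 (SE; adjusted p = 8.4e-05) in G-NHA9-21FGAA, 0.81 ± 0.16 (0.0014) in G-NHA9-ΔDNA, 0.77 ± 0.16 (0.0019) in G-NHA9Midi-21FGAA and 0.64 ± 0.16 (0.0028) in G-NHA9, the last lost with libraries 1 to 3 alone (adjusted p = 0.13). Sqle, squalene epoxidase, which oxidises squalene before ring closure, rose by 0.37, 0.44 and 0.38 in G-NHA9-21FGAA, G-NHA9Midi-21FGAA and G-NHA9-ΔDNA. Fdft1, squalene synthase, had log2 fold changes between -0.06 and 0.26 and no call. A fit with the library number blocked called it in G-NHA9-ΔDNA (adjusted p = 0.039).

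Of the 8 genes that turn lanosterol into cholesterol, 6 rose in G-NHA9-21FGAA, 4 each in G-NHA9, G-NHA9Midi-21FGAA and G-NHA9-ΔDNA, 2 in G-NHA9-8FA and 1 in G-NHA9Midi, where 1 fell. Sc5d (chr9:42251595-42264256), the sterol C5 desaturase, was at 64.2, 58.4, 61.9, 59.0 and 63.8 CPM in empty vector. It was at 97.3, 92.6, 90.0, 106 and 89.6 CPM in G-NHA9, 73.3, 97.3, 90.7, 99.1 and 101 in G-NHA9-8FA, 65.8, 79.3, 71.1, 73.9 and 76.4 in G-NHA9Midi, and 82.4, 77.9, 77.6, 76.6 and 79.4 in G-NHA9-21FGAA. All 5 libraries of each of these 4 groups lay above all 5 of empty vector. In G-NHA9Midi-21FGAA it was at 66.9, 70.0, 70.7, 75.9 and 67.5 CPM, also above all of empty vector, and in G-NHA9-ΔDNA at 71.2, 74.1, 74.4, 61.4 and 69.5 CPM, where library 4 lay within the empty vector range. Sc5d thus had its highest levels in G-NHA9 (0.63 ± 0.07, SE; adjusted p = 5.2e-08) and G-NHA9-8FA (0.59 ± 0.07; 2.8e-07), with smaller rises in G-NHA9-21FGAA (0.36 ± 0.07; 5.3e-04) and G-NHA9Midi (0.25 ± 0.07; 0.0058). In G-NHA9-ΔDNA and G-NHA9Midi-21FGAA its log2 fold change was 0.19, with adjusted p = 0.070 and 0.069.

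Tm7sf2, a sterol C14 reductase, rose by 0.62 in G-NHA9, 0.41 in G-NHA9-8FA and 0.36 in G-NHA9-21FGAA, and the block gave a call in G-NHA9-ΔDNA too (0.28, adjusted p = 0.047). Cyp51, the lanosterol demethylase, rose in G-NHA9, G-NHA9-21FGAA, G-NHA9Midi-21FGAA and G-NHA9-ΔDNA by 0.37, 0.62, 0.55 and 0.60, and Nsdhl, which acts with Msmo1 in demethylation, by 0.44, 0.57, 0.36 and 0.58. The call of Cyp51 in G-NHA9 was lost with libraries 1 to 3 alone (adjusted p = 0.17). Cyp51 overlaps Akap9 on the opposite strand, Fdft1 overlaps Ctsb and Srebf1 overlaps Rai1 in the same way, so without a stated strand setting their reads cannot be told apart from those of these neighbours. Hsd17b7 and Ebp, the ketoreductase and the sterol isomerase of later steps, rose in G-NHA9-21FGAA (0.43 and 0.37), G-NHA9Midi-21FGAA (0.51 and 0.55) and G-NHA9-ΔDNA (0.65 and 0.38). Dhcr7, the last enzyme of the route through 7-dehydrocholesterol, fell by -0.39 in G-NHA9Midi (adjusted p = 0.048, lost without any of 7 of the 10 libraries compared). In G-NHA9-ΔDNA it was called with the block (0.29, adjusted p = 0.024) and not without it (0.22). Msmo1 lay between -0.02 and 0.07 in all 6 comparisons.

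Among the regulators and the sterol carrier Stard4, calls were few. Insig1 (chr5:28071363-28078662), which retains the SCAP-SREBP complex in the endoplasmic reticulum and is itself an SREBP target, was at 153, 103, 124, 95.0 and 89.4 CPM in empty vector, 166, 162, 159, 131 and 120 in G-NHA9, 118, 158, 141, 161 and 166 in G-NHA9-8FA, and 134, 199, 150, 141 and 159 in G-NHA9Midi. In G-NHA9-21FGAA it was at 162, 141, 142, 130 and 113 CPM, in G-NHA9Midi-21FGAA at 159, 131, 134, 141 and 97.2, and in G-NHA9-ΔDNA at 170, 161, 151, 108 and 120. Empty vector library 1 overlapped every construct. Insig1 rose in G-NHA9 (0.38 ± 0.15, SE; adjusted p = 0.048), G-NHA9-8FA (0.40 ± 0.15; 0.046) and G-NHA9Midi (0.47 ± 0.15; 0.011), but with libraries 1 to 3 alone none of these 3 calls held (adjusted p = 0.090, 0.65 and 0.060), and its level did not pass the test over the 7 groups (adjusted p = 0.12). Srebf1, which encodes the SREBP that favours fatty acid genes, fell by -0.34 ± 0.11 (adjusted p = 0.015) in G-NHA9Midi, a call lost without empty vector replicate 5. Srebf2, the SREBP that favours sterol genes, had log2 fold changes between -0.43 and 0.14 with an SE of 0.29, Scap between -0.09 and 0.16, and Stard4 between -0.20 and 0.42, with no call. With the block, Stard4 was called in G-NHA9-ΔDNA (adjusted p = 0.018).

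Of the 7 fatty acid synthesis genes, 5 rose in G-NHA9-ΔDNA, 4 in G-NHA9-21FGAA and 2 each in G-NHA9 and G-NHA9Midi-21FGAA, whereas 1 fell in G-NHA9-8FA and 3 in G-NHA9Midi. Fasn (chr11:120805846-120824547) encodes fatty acid synthase, which builds palmitate. It was at 170, 129, 143, 206 and 222 CPM in empty vector, 232, 231, 219, 395 and 625 in G-NHA9, 232, 250, 245, 337 and 518 in G-NHA9-21FGAA, 231, 231, 241, 466 and 381 in G-NHA9Midi-21FGAA, and 356, 303, 289, 430 and 326 in G-NHA9-ΔDNA. Libraries 4 and 5 were the highest in 5 of the 7 groups, and the spread between libraries was wide. In G-NHA9-8FA Fasn was at 154, 189, 149, 205 and 319 CPM and in G-NHA9Midi at 164, 235, 212, 144 and 339 CPM, overlapping empty vector. Fasn rose by 0.97 ± 0.28 (SE; adjusted p = 0.0086) in G-NHA9, 0.97 ± 0.28 (0.018) in G-NHA9-ΔDNA, 0.86 ± 0.28 (0.022) in G-NHA9-21FGAA and 0.83 ± 0.28 (0.040) in G-NHA9Midi-21FGAA. With libraries 1 to 3 alone the 4 log2 fold changes were 0.63, 1.12, 0.74 and 0.69, each called, but each call was lost without 1 or more single libraries (without replicate 5 in G-NHA9, without empty vector replicate 2 in the other 3), with adjusted p up to 0.092, 0.058, 0.11 and 0.13.

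**Figure D3:**
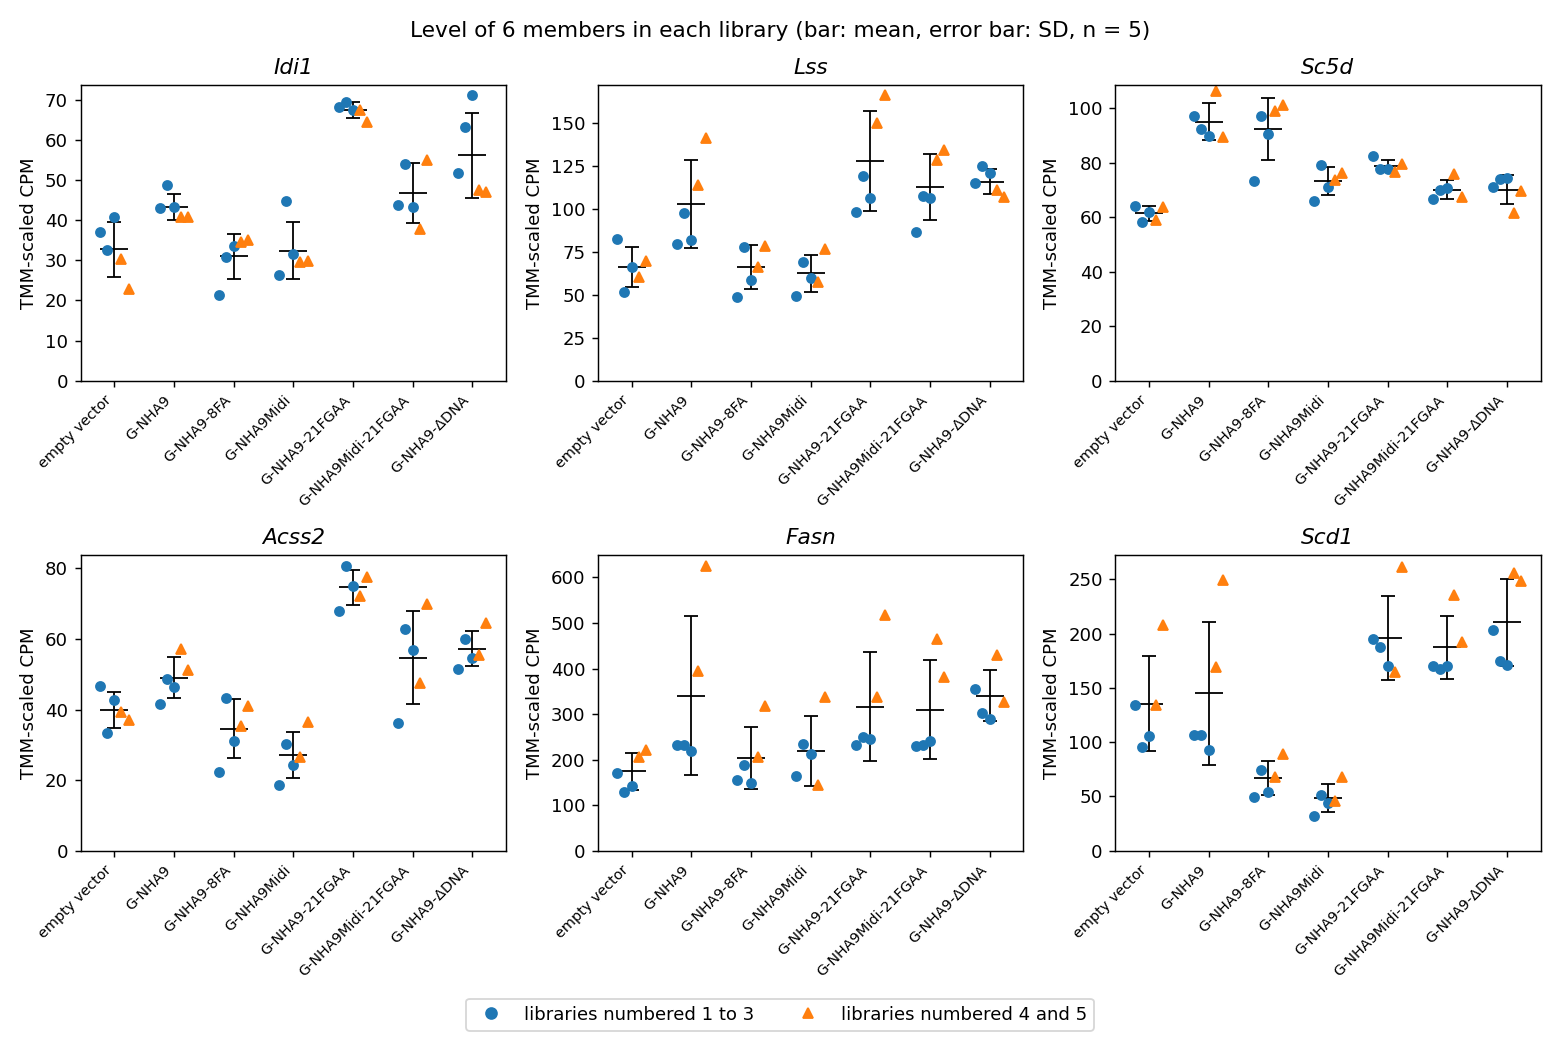
TMM-scaled CPM (y axes, from 0) of Idi1, Lss, Sc5d, Acss2, Fasn and Scd1 in each library of the 7 groups (x axes), with the mean and SD (n = 5). Circles are libraries 1 to 3 and triangles libraries 4 and 5. Scd1 is lowest in G-NHA9-8FA and G-NHA9Midi, at 32.4 to 89.0 CPM, below every empty vector library, and the triangles of Fasn reach 625 CPM in G-NHA9.

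Acss2 (chr2:155517948-155585724) encodes the cytosolic enzyme that makes acetyl-CoA from acetate. It was at 46.6, 33.5, 42.8, 39.3 and 36.9 CPM in empty vector, 41.5, 48.8, 46.5, 57.2 and 51.4 in G-NHA9, 22.3, 43.3, 31.0, 35.3 and 41.0 in G-NHA9-8FA, and 18.8, 30.2, 24.4, 26.4 and 36.3 in G-NHA9Midi. Its level in G-NHA9-21FGAA was 68.0, 80.7, 75.0, 72.1 and 77.7 CPM, in G-NHA9Midi-21FGAA at 36.3, 62.9, 57.0, 47.5 and 69.8, and in G-NHA9-ΔDNA at 51.6, 59.9, 54.7, 55.5 and 64.5. All libraries of G-NHA9-21FGAA and G-NHA9-ΔDNA lay above those of empty vector, and 4 of 5 G-NHA9Midi libraries lay below them. Acss2 rose by 0.91 ± 0.16 (SE; adjusted p = 1.1e-04) in G-NHA9-21FGAA, 0.52 ± 0.16 (0.022) in G-NHA9-ΔDNA and 0.46 ± 0.16 (0.044) in G-NHA9Midi-21FGAA, and fell by -0.55 ± 0.16 (0.0062) in G-NHA9Midi. With libraries 1 to 3 alone the calls in G-NHA9-ΔDNA and G-NHA9Midi-21FGAA were lost (adjusted p = 0.14 and 0.33). Acss2 overlaps 5 other annotated genes, among them Gss and Ggt7 on the opposite strand, and the strand setting of the counting is not given in the sources used here.

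Scd1 (chr19:44394455-44407879), another stearoyl-CoA desaturase, lies beside Scd2 and is similar to it in sequence, so reads that match both are uncertain. It was at 134, 95.4, 105, 134 and 208 CPM in empty vector and at 107, 107, 92.5, 169 and 250 CPM in G-NHA9. In G-NHA9-8FA it was at 49.5, 74.1, 54.3, 67.4 and 89.0 CPM, and in G-NHA9Midi at 32.4, 51.1, 44.4, 46.0 and 68.2 CPM. These 10 libraries lay below all of empty vector and all of G-NHA9 without overlap. In G-NHA9-21FGAA it was at 195, 188, 170, 165 and 261 CPM, in G-NHA9Midi-21FGAA at 170, 168, 170, 236 and 193, and in G-NHA9-ΔDNA at 203, 175, 171, 256 and 248, with only empty vector library 5 among the controls reaching into these ranges. Scd1 fell by -1.02 ± 0.23 (SE; adjusted p = 0.0011) in G-NHA9-8FA and by -1.49 ± 0.23 (4.9e-06) in G-NHA9Midi, and by -0.92 and -1.37 with libraries 1 to 3 alone. In G-NHA9-21FGAA, G-NHA9Midi-21FGAA and G-NHA9-ΔDNA its log2 fold change was 0.53, 0.47 and 0.64, with adjusted p = 0.085, 0.16 and 0.053. With the library number blocked the last 2 were called (adjusted p = 0.013 and 0.0020), and with libraries 1 to 3 alone all 3 were (0.0051, 0.024 and 0.0033).

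Scd2 (chr19:44293674-44306864) was at 1430, 1114, 1222, 1363 and 1954 CPM in empty vector, 1249, 1393, 1262, 1667 and 2305 in G-NHA9, 937, 1214, 1062, 1014 and 1341 in G-NHA9-8FA, and 1016, 1077, 1087, 1035 and 1293 in G-NHA9Midi. The libraries of G-NHA9-21FGAA stood at 1863, 1988, 1843, 1457 and 1882 CPM, in G-NHA9Midi-21FGAA at 1776, 1768, 1800, 2046 and 1550, and in G-NHA9-ΔDNA at 1858, 1859, 1693, 2145 and 2200. The groups lay in the same order as for Scd1 at the extremes, with overlap of every construct and empty vector. Scd2 rose by 0.46 ± 0.15 (SE; adjusted p = 0.028) in G-NHA9-ΔDNA and fell by -0.36 ± 0.15 (0.047) in G-NHA9Midi, calls lost without any of 5 and of 7 single libraries of the 10. With the block it was called in G-NHA9Midi-21FGAA as well (0.36, adjusted p = 0.032).

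Acly (chr11:100476353-100528000) was at 453, 400, 426, 380 and 385 CPM in empty vector, 405, 432, 414, 428 and 429 in G-NHA9, 374, 416, 356, 402 and 481 in G-NHA9-8FA, and 348, 394, 359, 345 and 441 in G-NHA9Midi. In G-NHA9-21FGAA it was at 415, 461, 419, 400 and 418 CPM, in G-NHA9Midi-21FGAA at 427, 407, 412, 431 and 348, and in G-NHA9-ΔDNA at 499, 523, 430, 424 and 428. All groups overlapped, and its log2 fold changes of -0.11 to 0.17 (SE 0.08) were not called, so that of the 2 sources of cytosolic acetyl-CoA among the members, Acss2 was called in 4 constructs and Acly in none. Acaca, acetyl-CoA carboxylase, rose by 0.36 in G-NHA9-21FGAA and 0.38 in G-NHA9-ΔDNA, and Elovl6, which elongates palmitate, by 0.59 in G-NHA9, 0.80 in G-NHA9-21FGAA and 0.70 in G-NHA9-ΔDNA. With the block both were called in G-NHA9Midi-21FGAA as well (Acaca 0.22, adjusted p = 0.027, and Elovl6 0.47, adjusted p = 0.025).

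The mutants were next compared with G-NHA9 itself, whose 5 libraries all 4 comparisons share. G-NHA9-8FA had 6 members lower and none higher (20.7%, against 14.5% of all genes called, 6.43% higher and 8.04% lower). All 5 libraries lay below all 5 of G-NHA9 for 4 members (5.70% of all genes) and above them for none (3.71%). The members called were Scd1 (-1.12 ± 0.23, SE; adjusted p = 0.0011), Lss (-0.64 ± 0.16; 0.0069), Acss2 (-0.51 ± 0.16; 0.030), Scd2 (-0.50 ± 0.15; 0.019), Dhcr7 (-0.49 ± 0.16; 0.036) and Idi1 (-0.48 ± 0.15; 0.025). The count depended on single libraries: it was 3 without G-NHA9 replicate 5 or without G-NHA9-8FA replicate 1, and 11 without G-NHA9-8FA replicate 5. Scaled by total counts alone it was 14, all lower, with a median of -0.12 over all genes and 14.6% of all genes called lower. Sc5d (-0.04), Fdps (0.07) and Insig1 (0.01) differed by less than their SE.

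G-NHA9Midi had 12 members lower than G-NHA9 and none higher (41.4%, against 19.7% of all genes called, 8.50% higher and 11.2% lower), with a median log2 fold change of -0.38 over the members. All libraries lay below those of G-NHA9 for 4 members (7.64% of all genes) and above for none (5.42%). Scd1 (-1.58 ± 0.24, SE; adjusted p = 6.8e-06), Acss2 (-0.85 ± 0.16; 2.0e-04), Lss (-0.72 ± 0.16; 0.0016) and Sc5d (-0.38 ± 0.07; 3.2e-04) were among them, with Pmvk, Idi1, Tm7sf2, Nsdhl, Dhcr7, Srebf1, Elovl6 and Scd2 at -0.38 to -0.55. The count was 5 with libraries 1 to 3 alone, against 15.6% of all genes. It was 6 without G-NHA9 replicate 5 or G-NHA9Midi replicate 4, and 7 without G-NHA9 replicate 4 or G-NHA9Midi replicate 1.

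G-NHA9-21FGAA had 4 members higher and 1 lower than G-NHA9 (17.2%, the same share as of all genes, 17.2%, with 8.91% higher and 8.34% lower). All libraries lay above those of G-NHA9 for 3 members (6.40% of all genes) and below for 1 (5.13%). Idi1 (0.64 ± 0.15, SE; adjusted p = 0.0019), Acss2 (0.61 ± 0.16; 0.0063), Ebp (0.39 ± 0.11; 0.0081) and Acaca (0.34 ± 0.10; 0.019) were higher, and Sc5d (-0.27 ± 0.07; 0.0079) was lower. G-NHA9-ΔDNA had 3 higher and 2 lower (17.2%, against 22.1% of all genes, with 10.7% higher and 11.4% lower), and all libraries lay above those of G-NHA9 for none (7.03%) and below for 1 (7.20%). The called members were Hsd17b7 (0.47 ± 0.14; 0.012), Ebp (0.40 ± 0.11; 0.0054) and Acaca (0.36 ± 0.10; 0.010) on the one side, and Sc5d (-0.44 ± 0.07; 3.1e-05) and Tm7sf2 (-0.32 ± 0.12; 0.045) on the other. With the library number blocked, the counts were 8 for G-NHA9-21FGAA and 9 for G-NHA9-ΔDNA, against 22.9% and 28.1% of all genes, and Scd1 was called in both (0.51 and 0.61, adjusted p = 0.013 and 0.0024). The block added Hmgcs1 and Sqle in G-NHA9-21FGAA (adjusted p = 0.042 and 0.047) and Idi1, Sqle and Scd2 in G-NHA9-ΔDNA (0.040, 0.025 and 0.046). Each count was 9 without G-NHA9 replicate 5. With libraries 1 to 3 alone, 12 members were called in G-NHA9-ΔDNA, against 22.5% of all genes.

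Within the shortened construct, G-NHA9Midi-21FGAA had 13 members higher than G-NHA9Midi and none lower. The share of 44.8% was near the 43.2% of all genes called in this comparison, of which 21.0% were called higher and 22.2% lower, and all libraries lay above those of G-NHA9Midi for 8 members (14.2% of all genes) and below for none (15.9%). Scd1 was 3.87-fold higher (1.95 ± 0.24 on the log2 scale, SE; adjusted p = 4.3e-08), with means of 187 and 48.4 CPM and no overlap. Acss2 (1.01 ± 0.16; 4.7e-06), Lss (0.85 ± 0.16; 7.1e-05), Scd2 (0.70 ± 0.15; 2.3e-04), Ebp (0.64 ± 0.11; 9.2e-06) and Srebf1 (0.54 ± 0.11; 2.1e-04) followed. The study counts 21 FG motifs in G-NHA9Midi, so the 21 FG changes left none there, whereas the full-length construct kept others. Whether the 21 FG changes acted differently in the 2 backbones was tested as a difference of effects. Among the members it passed for Scd1, of which the effect was 1.95 in the shortened and 0.43 in the full-length construct, a difference of 1.52 ± 0.33 (SE; adjusted p = 0.0016), against 12.6% of all genes called. The difference was 1.12 (adjusted p = 0.0032) with libraries 1 to 3 alone. Srebf1 was called too without G-NHA9 replicate 1 or G-NHA9Midi replicate 5. With the library number blocked, 5 members were called (Scd1, Srebf1, Dhcr7, Lss and Scd2), against 20.0% of all genes. For the other 28 members without the block, adjusted p lay between 0.070 (Srebf1, 0.43) and 0.98.

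Other genes of the pathway were taken from lists written from textbook knowledge. Of 6 other sterol synthesis genes in the counts, 3 rose in G-NHA9, G-NHA9-21FGAA and G-NHA9-ΔDNA, 2 in G-NHA9Midi-21FGAA, and 1 in G-NHA9-8FA, where 1 fell, and in G-NHA9Midi. Acat2, which makes the acetoacetyl-CoA that enters the pathway, rose by 0.70 in G-NHA9, 0.88 in G-NHA9-21FGAA, 0.60 in G-NHA9Midi-21FGAA and 0.79 in G-NHA9-ΔDNA. Lbr, a sterol reductase that also anchors chromatin at the nuclear envelope, rose in all 6 constructs, by 0.58 to 1.06. Of 24 other fatty acid synthesis genes tested, 7 rose and 4 fell in G-NHA9, 5 and 3 in G-NHA9-8FA, 6 and 7 in G-NHA9Midi, 6 and 3 in G-NHA9-21FGAA, 5 and 1 in G-NHA9Midi-21FGAA, and 3 and 2 in G-NHA9-ΔDNA. Fads2, the delta-6 desaturase, rose by 0.79 in G-NHA9, 1.29 in G-NHA9-21FGAA, 1.02 in G-NHA9Midi-21FGAA and 1.16 in G-NHA9-ΔDNA, and was at -0.24 and -0.18 in G-NHA9-8FA and G-NHA9Midi, with no call.

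Genes of sterol efflux and of the sterol-sensing receptor LXR were called lower more often than higher. Of 14 in this list, 10 fell in G-NHA9, 7 in G-NHA9-8FA, 9 in G-NHA9Midi, 6 in G-NHA9-21FGAA and 2 each in G-NHA9Midi-21FGAA and G-NHA9-ΔDNA, and the only rises were Apoe (0.66) and Soat2 (1.00) in G-NHA9Midi. Of all genes tested, 7.32% were called lower in G-NHA9Midi-21FGAA, 7.35% in G-NHA9-ΔDNA, and 12.5% to 20.0% in the other constructs. Nr1h3, which encodes LXR-alpha, fell by -2.06 in G-NHA9, -1.19 in G-NHA9-8FA and -2.29 in G-NHA9Midi, and the sterol exporter Abcg1 by -1.29 in G-NHA9 and -1.41 in G-NHA9Midi. The list's summed level was 2130 to 2462 CPM in empty vector, 1103 to 1475 in G-NHA9, 1240 to 2025 in G-NHA9-8FA, 991 to 1497 in G-NHA9Midi, 1232 to 1776 in G-NHA9-21FGAA, 1622 to 2217 in G-NHA9Midi-21FGAA and 1640 to 1830 in G-NHA9-ΔDNA. Macrophages also express many of these genes, and the part of the lower macrophage marker levels given above in this difference was not tested. Of 14 genes of sterol uptake and transport, 5, 4, 6, 6, 3 and 4 fell in G-NHA9, G-NHA9-8FA, G-NHA9Midi, G-NHA9-21FGAA, G-NHA9Midi-21FGAA and G-NHA9-ΔDNA. Rises in this list are not counted here, so these counts do not give the direction of the list as a whole. Lipa, the lysosomal lipase that frees cholesterol from lipoproteins, fell in all 6 by -0.59 to -1.29. With the library number blocked, the fallen genes of efflux and LXR numbered 5 in G-NHA9Midi-21FGAA and 4 in G-NHA9-ΔDNA. In G-NHA9Midi-21FGAA 5 of the uptake list fell and 8 other fatty acid synthesis genes rose. Of all genes, 12.1% fell and 13.2% rose in G-NHA9Midi-21FGAA with the block, and 11.7% fell in G-NHA9-ΔDNA.

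Of 9 other SREBP regulators, at most 4 fell (in G-NHA9Midi) and at most 1 rose. Of 14 genes of the isoprenoid branch, which leads from farnesyl diphosphate to prenyl groups, dolichol and ubiquinone, 6 rose in G-NHA9Midi and 4 in G-NHA9-8FA, with 1 or 2 rising in the other constructs and at most 2 falling in any. Of 19 fatty acid oxidation genes tested, 7 fell and 2 rose in G-NHA9, 4 fell and 5 rose in G-NHA9Midi, and none was called in G-NHA9-ΔDNA. Of all genes, 15.2% fell and 16.9% rose in G-NHA9, 20.0% fell and 20.5% rose in G-NHA9Midi, and 17.2% were called in G-NHA9-ΔDNA. Of 8 stem and progenitor markers, 4 rose in G-NHA9 and in G-NHA9-21FGAA, and 2 or 3 rose in the other constructs.

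**Figure D4:**
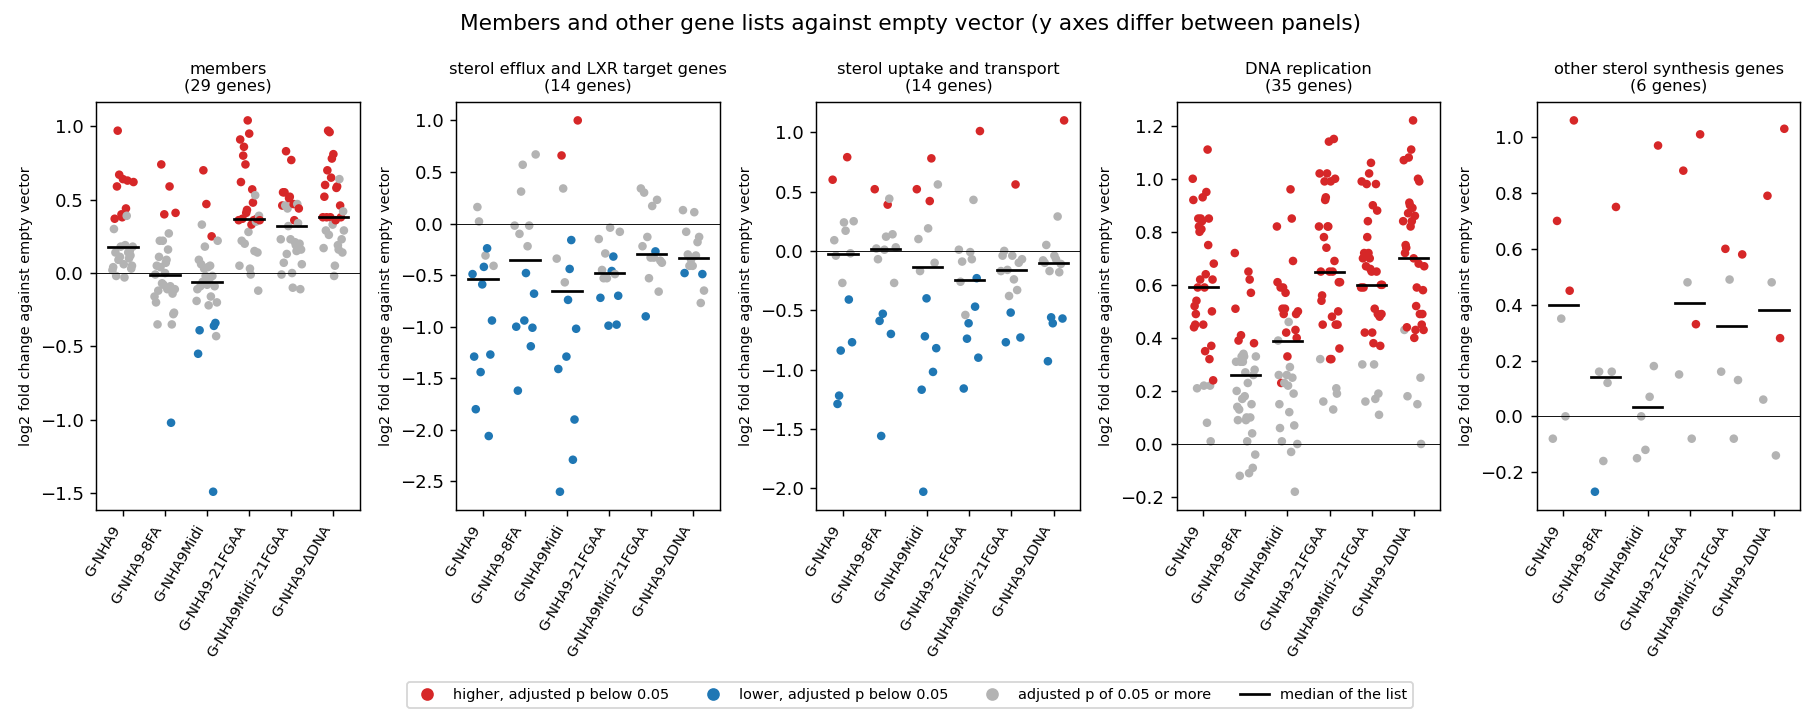
Log2 fold change against empty vector (y axes, which differ between panels) in the 6 constructs (x axes) for the 29 members and for the genes tested in 4 other lists, 1 point per gene, coloured where the adjusted p was below 0.05, with the list's median as a bar. The members' median lies between 0.32 and 0.38 in G-NHA9-21FGAA, G-NHA9Midi-21FGAA and G-NHA9-ΔDNA, the efflux and LXR list's median is below 0 in all 6 constructs, and the DNA replication list's median is above 0 in all 6.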

How the data were processed

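RNA was measured by stranded total RNA sequencing in 35 libraries, 7 groups of 5. The authors deposited raw counts per gene, with no normalization. Their processing notes name STAR 2.7.0d, HTSeq 0.11.2, DESeq2 and mm10. The annotation and the strand setting are not given in the sources used here, and the age and replicate number of a library are as its label gives them. Gene identifiers were matched to GENCODE M21 symbols without the version suffix, and 99.3% were found. No duplicate libraries were seen among 70 pairs within groups (chi-square per degree of freedom at least 23.2).

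Genes were kept with edgeR's filterByExpr, which left 17166 genes with 99.96% of the counts. After TMM scaling, all libraries were fitted together, with one mean per group, by edgeR 4.0.16 (glmQLFit and glmQLFTest, R 4.3.3, limma 3.58.1). P-values were adjusted by Benjamini-Hochberg over all genes tested in a comparison, with a threshold of 0.05. On simulated data at a fixed dispersion, 200 genes were changed by an absolute log2 fold change of at least 1, and all were recovered. Most changes of the members were smaller, which this simulation did not cover. CPM values were computed after TMM scaling, and RPKM values from exon length. Total counts bound the precision: 3 counts came to 0.0382 to 0.0995 CPM. Figures were drawn with matplotlib 3.10.9.

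Alternatives were RLE scaling, no TMM, other filters, DESeq2 1.42.0, a fit to the 2 groups compared alone, a fold threshold, the replicate number as a block, and each library left out. Libraries 1 to 3 alone, and the difference of the 21FGAA effects, were added after the data were seen. Deviations from the group means of libraries that share a number had a mean r of 0.232, against -0.0571 for other numbers. Every such r was above 0.1 in 5 of the 11 comparisons, namely G-NHA9, G-NHA9Midi-21FGAA and G-NHA9-ΔDNA against empty vector, and also, with G-NHA9 as the reference, those of G-NHA9-ΔDNA and G-NHA9-21FGAA. There the blocked value stands beside a result where it changed a call. The members and the gene lists were chosen with earlier results of these data known. Members given by library are, for each construct, the 2 called with the largest rise and the 2 with the largest fall, and the 3 with the highest mean log2 CPM (Fasn among them), with the 3 of smallest p over the 7 groups.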

Additional observations from a re-analysis of the deposited data

Results flagged for a closer look

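Of 203 sets of 5 libraries (29 members in 7 groups), 10 held a library that stood apart from the other 4 by Dixon's test (a gap of over 0.71 of the whole range), 8 of them high and 2 low. Chance alone flags about 5% of sets. In replicate 5 of G-NHA9Midi, Mvd was at 99.9 CPM against 69.0 to 75.8 in the others (gap 0.780 of the range), Srebf1 at 111 against 79.3 to 86.7 (0.766) and Scd2 at 1293 against 1016 to 1087 (0.744). In replicate 5 of G-NHA9, Sqle was at 163 CPM against 121 to 130 (0.780) and Scap at 45.7 against 26.1 to 31.0 (0.750), and in replicate 1 of G-NHA9, Mvk was at 18.5 against 22.9 to 24.2 (0.763). Idi1 in replicate 2 of G-NHA9Midi was at 44.8 CPM against 26.4 to 31.5 (0.724), Acaca in replicate 5 of G-NHA9-21FGAA at 151 against 106 to 118 (0.735), Scd2 in replicate 4 of G-NHA9-21FGAA at 1457 against 1843 to 1988 (0.727), and Elovl6 in replicate 1 of empty vector at 37.1 against 21.9 to 25.3 (0.778).

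The effect of the 21 FG changes on Scd1 was larger in the shortened construct than in the full-length one by 1.52 on the log2 scale (SE 0.33, adjusted p = 0.0016, edgeR, n = 5 in each of the 4 groups).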

How the results depend on the processing

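No single member that was called changed sign under an alternative, but without TMM the median over the members went from -0.06 to 0.06 in G-NHA9Midi and from -0.01 to 0.04 in G-NHA9-8FA. Without TMM the count of called members was 16 in G-NHA9 (38.7% of all genes called), 16 in G-NHA9Midi-21FGAA (22.9%) and 14 in G-NHA9-8FA against G-NHA9 (18.2%). With the library number blocked (the replicate block) it was 8 in G-NHA9-8FA (4 higher and 4 lower, against 34.5% of all genes called). Against G-NHA9 it was then 11 in G-NHA9-8FA (23.0%), 9 in G-NHA9-ΔDNA (28.1%) and 8 in G-NHA9-21FGAA (22.9%). For the difference of the 21FGAA effects it was 5 (20.0%), and the counts of the other comparisons stayed within 1.5 times. DESeq2 called 10 in G-NHA9-8FA against G-NHA9 (17.0% of all genes called). Libraries 1 to 3 alone gave 4 in G-NHA9 (24.8% of all genes called) and 2 in G-NHA9-8FA (17.3%). Against G-NHA9 they gave 5 in G-NHA9Midi (15.6%) and 12 in G-NHA9-ΔDNA (22.5%). An absolute log2 fold change of at least 1 left 0 members in G-NHA9 (10.5% of all genes). It left 1 in G-NHA9-8FA (9.57%), G-NHA9Midi (14.9%) and G-NHA9-21FGAA (5.99%), and 0 in G-NHA9Midi-21FGAA (3.49%) and G-NHA9-ΔDNA (3.01%). In the direct comparisons it left 1 for G-NHA9-8FA (5.03%) and G-NHA9Midi (7.95%), and 0 for G-NHA9-21FGAA (7.85%) and G-NHA9-ΔDNA (9.48%). For G-NHA9Midi-21FGAA it left 2 there (16.9%).

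Leaving out 1 library gave 7 to 10 called members in G-NHA9, 4 to 7 in G-NHA9-8FA, 4 to 9 in G-NHA9Midi, 11 to 18 in G-NHA9-21FGAA, 7 to 12 in G-NHA9Midi-21FGAA and 10 to 17 in G-NHA9-ΔDNA. It gave 3 to 11 in G-NHA9-8FA, 6 to 13 in G-NHA9Midi, 4 to 9 in G-NHA9-21FGAA and 4 to 9 in G-NHA9-ΔDNA against G-NHA9, 11 to 18 in G-NHA9Midi-21FGAA against G-NHA9Midi, 22 to 24 over the 7 groups, and 1 to 2 for the difference of effects (2 without G-NHA9 replicate 1 or G-NHA9Midi replicate 5). The cause of these changes was not tested. For single members, 5299 values kept their side of the threshold, 198 gained a call and 245 lost one. Depth limits none of the members. Each SE is the absolute log2 fold change divided by the square root of F, from the fit to all 35 libraries. It thus rests on a spread pooled over the 7 groups, not on that of the groups compared alone.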

Other observations

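Members varied together within groups to differing degrees. Over the 406 pairs of members, the correlation of log2 CPM after subtraction of group means across the 35 libraries, which share depth and library number, ran from -0.65 (Insig1 and Scap) to 0.91 (Dhcr7 and Scd1), with a median of 0.40. These are descriptions of libraries that share their sources, with no test.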
